A study of Rattus norvegicus with 9 samples.

Results

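The genes described here are 37 genes of skeletal muscle fibres, read out in whole tibias of rats. They were chosen by name, as genes of the contractile apparatus, of calcium handling and of muscle energy metabolism, after lower muscle values in exercised than in unexercised ovariectomized rats had been seen in these same libraries. The comparison of the RE/Ovx group with the NE/Ovx group therefore chose them. It is given below as a description: counts of genes past a threshold are listed for it, and nothing is read from them. All 37 were among the 22589 genes of the count files, and 35 of them were among the 14520 genes with enough counts to be tested. The 2 that were not tested are Myh8 and Myot. By role, 11 genes belong to fast fibres, 7 to slow fibres, 2 are developmental myosins, 6 are sarcomere genes shared by both fibre types, 6 handle calcium and 5 serve energy metabolism.

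Left tibias of 9 female Sprague-Dawley rats were sequenced, 1 library a rat, 24 weeks after surgery on animals bought at 9 weeks of age. The RE/Ovx group (rats 3, 5 and 8) had both ovaries removed, was trained for 2 weeks to get used to the apparatus, and then climbed a ladder with a load for 12 weeks. The NE/Ovx group (rats 6, 8 and 9) had both ovaries removed and did no exercise. The Sham group (rats 7, 8 and 12) kept its ovaries, lost only some fat beside them, and did no exercise. Skin, muscles, ligaments and tendons had been taken off the bones, so the muscles around the bone were not meant to be part of these samples. The numbers name rats within a group, and rat 8 of one group is not rat 8 of another.

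Muscle fibres contract when calcium leaves the sarcoplasmic reticulum through the ryanodine receptor, binds troponin C, and frees actin for the myosin heads. Fast and slow fibres use different genes for most of these parts, each with its own myosin heavy chain, light chains, troponin subunits and calcium pump, so the mix of forms reports the fibre type. In the rat, Myh4, Myh1 and Myh2 code for the fast heavy chains called IIb, IIx and IIa, and Myh7 codes for the slow heavy chain, which the heart also uses.

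The 3 fast heavy chain genes lie close together on chromosome 10, and the sequence at their starts is shown because they carry most of the myosin signal. Each stretch runs 300 bases, 250 before to 50 after the start of the gene, in the RefSeq annotation of GRCr8, on the plus strand: chr10:52421898-52422197 for Myh4, chr10:52384662-52384961 for Myh1 and chr10:52355489-52355788 for Myh2. Capitals mark matches to TATAAA on either strand and to the MEF2 box, the site named after a family of muscle transcription factors, and the MEF2 box matches here overlap a TATAAA match.
Myh4: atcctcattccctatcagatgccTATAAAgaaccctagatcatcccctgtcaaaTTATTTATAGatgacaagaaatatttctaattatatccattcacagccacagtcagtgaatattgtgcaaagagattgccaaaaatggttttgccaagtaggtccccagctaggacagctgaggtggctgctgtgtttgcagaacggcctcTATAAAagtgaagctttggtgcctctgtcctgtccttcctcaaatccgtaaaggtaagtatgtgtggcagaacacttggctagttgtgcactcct
Myh1: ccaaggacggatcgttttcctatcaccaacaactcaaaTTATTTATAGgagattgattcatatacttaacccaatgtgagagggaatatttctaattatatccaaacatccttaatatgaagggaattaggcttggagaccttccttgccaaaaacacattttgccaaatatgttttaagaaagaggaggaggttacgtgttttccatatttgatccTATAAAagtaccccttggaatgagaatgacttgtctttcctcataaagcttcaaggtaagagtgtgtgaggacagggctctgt
Myh2: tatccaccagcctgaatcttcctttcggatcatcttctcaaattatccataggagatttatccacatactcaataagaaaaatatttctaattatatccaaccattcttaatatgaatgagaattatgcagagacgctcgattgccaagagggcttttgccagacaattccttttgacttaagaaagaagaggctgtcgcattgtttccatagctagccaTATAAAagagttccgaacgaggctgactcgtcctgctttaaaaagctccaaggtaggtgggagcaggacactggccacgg

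A MEF2 box was found in the Myh4 and Myh1 stretches and not in that of Myh2, and a TATAAA match began at base -45 of Myh4, -33 of Myh1 and -30 of Myh2, counted from the start. The table of gene starts held 32 of the 37 genes, among them 9 of 11 fast and 5 of 7 slow genes. A MEF2 box was found for 6 of those 32 (18.8%), 4 of them fast genes and 0 of them slow genes, against 3.29% of all 33469 stretches of this length. TATAAA was found for 12 of the 32 (37.5%), against 14.2% of all stretches. A gene was counted when any of its stretches matched, so shares of genes and shares of stretches are not the same measure. These are matches of letters and were not tested as binding sites.

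The libraries held 12297992 to 16671533 counts, with a median of 14762243 in the RE/Ovx group, 14233832 in the NE/Ovx group and 12492426 in the Sham group. Levels are given as CPM, the counts set to a common library size after edgeR's TMM scaling, whose factors lay between 0.962 and 1.04. The tissue carried its own markers: 8 osteoblast and osteocyte genes summed to 16800 to 26800 CPM in the RE/Ovx group, 15330 to 25200 CPM in the NE/Ovx group and 5809 to 8792 CPM in the Sham group. Col1a1 made up most of these sums, at 15610 to 25410 CPM in RE/Ovx rats, 14460 to 23780 CPM in NE/Ovx rats and 5239 to 7466 CPM in Sham rats, and Ibsp and Sost had their highest values in Sham rats. One library stood apart before any comparison, that of Sham rat 8, whose value lay below those of both other Sham rats in 36 of the 37 genes and below those of all RE/Ovx rats in 26 of them. The main results that rest on it are given with and without it.

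The total muscle signal was lower in every RE/Ovx rat than in every NE/Ovx rat. The 37 genes took 0.934, 1.27 and 0.862% of all counts in RE/Ovx rats 3, 5 and 8, against 2.18, 1.79 and 1.76% in NE/Ovx rats 6, 8 and 9. In Sham rats 7, 8 and 12 they took 1.51, 0.661 and 1.95%. Rat 8 thus sat below all RE/Ovx rats, while Sham rats 7 and 12 sat above all of them. The group means gave a ratio of 0.534 for RE/Ovx over NE/Ovx, 1.39 for NE/Ovx over Sham and 0.741 for RE/Ovx over Sham; without Sham rat 8, the ratio was 1.10 for NE/Ovx over Sham and 0.589 for RE/Ovx over Sham. Ttn, the longest of these genes, held much of the count: without it, the genes took 0.4998% in the RE/Ovx group, 0.969% in the NE/Ovx group and 0.8002% in the Sham group on average. In bulk tissue, fewer muscle fibres and less muscle RNA per fibre cannot be told apart.

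**Figure D1:**
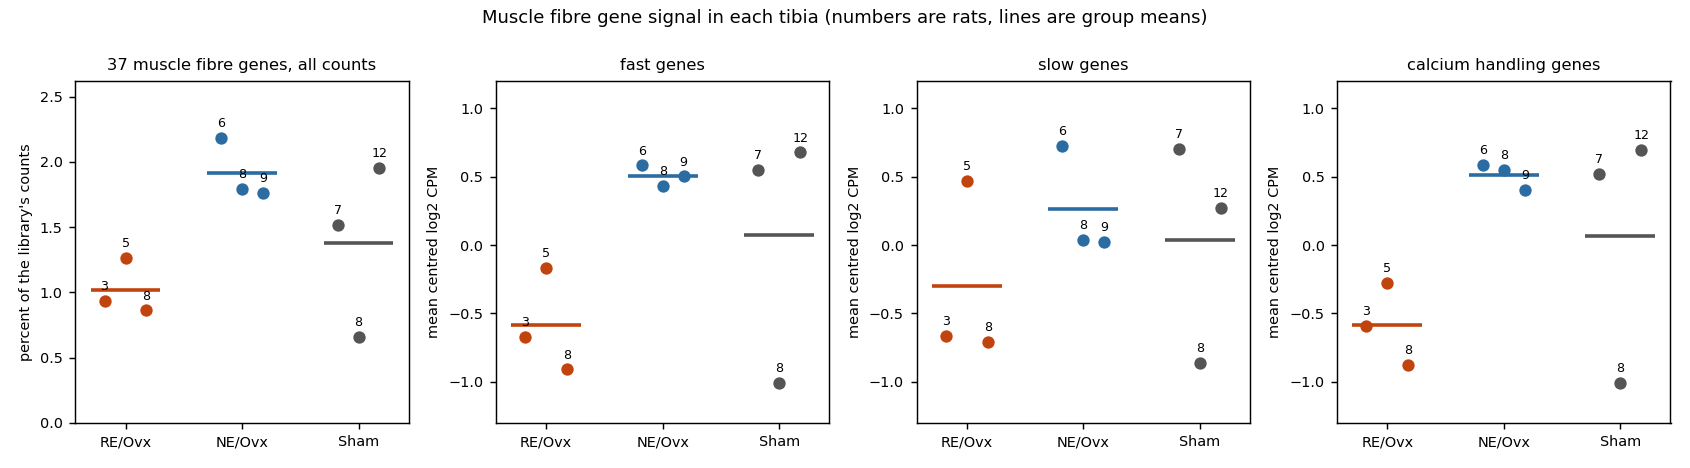
The left panel plots the percent of each library's counts taken by the 37 muscle fibre genes, and the others plot the mean of log2 CPM, centred on each gene's mean over the 9 rats, for fast, slow and calcium handling genes. Each point is a rat with its number and each line a group mean: RE/Ovx rats lie at 0.862 to 1.27% and NE/Ovx rats at 1.76 to 2.18%, and Sham rat 8 (0.661%) lies far below Sham rats 7 and 12.

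Per gene length, in FPKM averaged over the 9 rats (SD, n = 9), skeletal actin Acta1 had the highest level, 516 ± 218. Mylpf, the fast regulatory light chain, followed at 337 ± 132, and Atp2a1, the calcium pump of fast fibres, at 242 ± 105. Mylpf and Atp2a1 differed by less than their spread. Fast forms stood above their slow partners in every family but myosin binding protein C: Myh4 was at 154 ± 72.2, Myh1 at 127 ± 47.5 and Myh2 at 39.8 ± 14.7, and slow Myh7 was at 12.6 ± 5.23. Mybpc1 was the highest of the slow genes at 46.4 ± 18.6, beside 37.1 ± 16.1 for its fast partner Mybpc2. The developmental myosins were near the floor, with Myh3 at 1.08 ± 0.455 and Myh8 at 0.1004 ± 0.0622, and Myot at 0.0199 ± 0.0343 was the lowest.

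Between exercised and unexercised ovariectomized rats, all 35 tested genes had negative log2 fold changes, with a median of -0.94 against 0.01 over all genes tested. None of the 35 passed an adjusted p of 0.05 in edgeR's quasi-likelihood fit, where the background was 0% of all genes. At the thresholds the study used, p below 0.05 before adjustment and a fold beyond 1.2 upwards or 0.83 downwards, 22 of the 35 were lower, beside 3.15% of all genes. The RE/Ovx and NE/Ovx values did not overlap, with the RE/Ovx values lower, for 27 of the 35 genes, beside 6.84% of all genes. Since this comparison chose the genes, nothing is read from these counts. The classes were unequal within it: the median was -1.10 for fast, -1.05 for calcium handling, -1.08 for energy metabolism, -0.86 for shared sarcomere and -0.50 for slow genes.

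**Figure D2:**
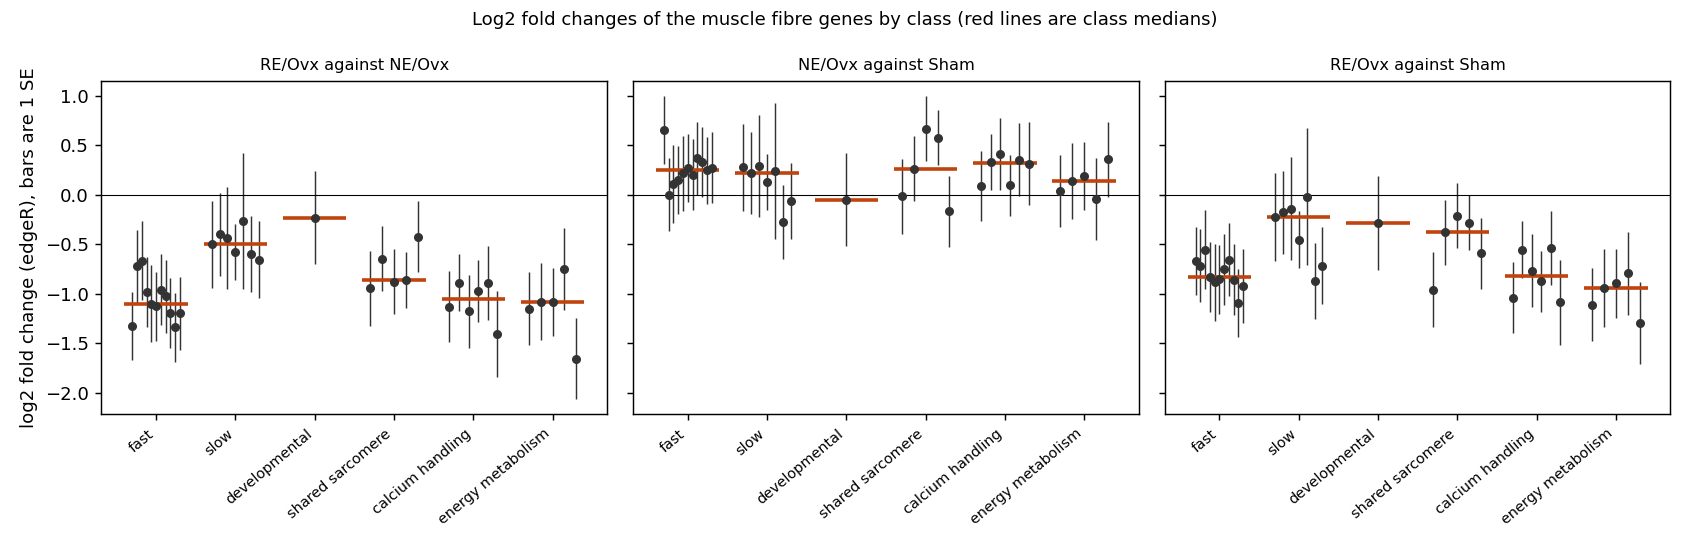
Log2 fold changes from edgeR are plotted for the 35 tested genes in each comparison, by class, with bars of 1 SE and lines at the class medians. All points lie below 0 in both comparisons of RE/Ovx rats, 29 of 35 lie above 0 for NE/Ovx against Sham, and the slow class lies closest to 0 among the classes of more than 1 gene where RE/Ovx rats are compared.

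Among the fast heavy chains, Myh4 had the widest gap between the exercised and unexercised rats. Myh4 was at 503, 711 and 428 CPM in RE/Ovx rats 3, 5 and 8, against 1546, 1340 and 1224 CPM in NE/Ovx rats 6, 8 and 9 and 857, 423 and 1327 CPM in Sham rats 7, 8 and 12. Myh1 was at 499, 701 and 418 CPM in RE/Ovx rats, 949, 733 and 981 CPM in NE/Ovx rats, and 1216, 370 and 1071 CPM in Sham rats. For Myh1, RE/Ovx rat 5 came close to NE/Ovx rat 8, and Sham rats 7 and 12 were above all other rats. Myh2 was at 124, 243 and 157 CPM in RE/Ovx rats, 308, 248 and 275 CPM in NE/Ovx rats, and 336, 97.3 and 335 CPM in Sham rats. The RE/Ovx values lay below the NE/Ovx values for all 3 genes, and Sham rat 8 lay below every RE/Ovx rat for all 3. These genes are near-identical copies, so their reads may have been split or shared by the authors' counting, and their separate values are uncertain to that extent.

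The fast troponins also had all RE/Ovx values below all NE/Ovx values. Tnnt3, fast troponin T, which ties the complex to tropomyosin, was at 134, 179 and 118 CPM in RE/Ovx rats, 291, 264 and 293 CPM in NE/Ovx rats, and 316, 105 and 344 CPM in Sham rats. Tnni2, fast troponin I, the inhibitory subunit, was at 66.1, 99.3 and 55.6 CPM in RE/Ovx rats, 164, 150 and 158 CPM in NE/Ovx rats, and 172, 51.6 and 183 CPM in Sham rats. Tnnc2, the calcium-binding subunit, was at 87.5, 140 and 79.5 CPM in RE/Ovx rats, 226, 214 and 228 CPM in NE/Ovx rats, and 228, 82.1 and 242 CPM in Sham rats. In each of the 3, the NE/Ovx rats were close together, and Sham rats 7 and 12 were above or level with them.

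The remaining fast genes are Mylpf, Myl1, Actn3, Mybpc2 and Myoz1. Mylpf was at 151, 167 and 108 CPM in RE/Ovx rats, against 278, 272 and 277 CPM in NE/Ovx rats and 300, 94.6 and 323 CPM in Sham rats. Myl1, the fast essential light chain, was at 157, 203 and 118 CPM in RE/Ovx rats, 324, 336 and 313 CPM in NE/Ovx rats, and 308, 99.5 and 344 CPM in Sham rats. Actn3, the alpha-actinin of fast Z discs, had the most negative fast fold change between RE/Ovx and NE/Ovx rats (log2 -1.34, SE 0.34). It was at 93.7, 129 and 72.8 CPM in RE/Ovx rats, 272, 252 and 222 CPM in NE/Ovx rats, and 252, 95.3 and 280 CPM in Sham rats. Mybpc2, fast myosin binding protein C, and Myoz1, a Z disc protein of fast fibres, had RE/Ovx values below all NE/Ovx values too, so that this held for 11 of the 11 fast genes.

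The slow genes showed RE/Ovx rat 5 apart from its group. Myh7 was at 41.7, 120 and 54.0 CPM in RE/Ovx rats 3, 5 and 8, against 143, 80.1 and 81.0 CPM in NE/Ovx rats and 115, 41.3 and 93.9 CPM in Sham rats. Tnnt1, slow troponin T, was at 9.82, 17.4 and 8.10 CPM in RE/Ovx rats, 22.5, 12.7 and 11.2 CPM in NE/Ovx rats, and 19.5, 6.45 and 13.6 CPM in Sham rats. Tnni1, slow troponin I, was at 4.84, 15.1 and 4.82 CPM in RE/Ovx rats, 14.03, 9.69 and 9.52 CPM in NE/Ovx rats, and 13.96, 3.63 and 9.33 CPM in Sham rats. In these 3 genes rat 5 reached the range of the NE/Ovx group, while RE/Ovx rats 3 and 8 stayed below it.

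Tnnc1, the troponin C of slow fibres and heart, was at 8.28, 17.3 and 9.12 CPM in RE/Ovx rats, 20.7, 16.1 and 14.8 CPM in NE/Ovx rats, and 19.4, 11.8 and 15.9 CPM in Sham rats. Myl2, the slow regulatory light chain, was at 1.35, 6.04 and 1.41 CPM in RE/Ovx rats, 5.66, 2.84 and 2.0 CPM in NE/Ovx rats, and 5.16, 1.13 and 2.42 CPM in Sham rats. Rat 5 had the highest Myl2 of all 9 rats. Myl3, the slow essential light chain, was at 7.87, 12.4 and 6.36 CPM in RE/Ovx rats, 17.0, 8.86 and 14.3 CPM in NE/Ovx rats, and 19.2, 8.06 and 21.2 CPM in Sham rats. Mybpc1, slow myosin binding protein C, is made in fast fibres as well, and it was the only slow gene whose RE/Ovx values, 146, 176 and 118 CPM, lay below all NE/Ovx values, 274, 206 and 211 CPM, with 365, 90.6 and 263 CPM in Sham rats. Without RE/Ovx rat 5, the median log2 fold change of the slow class between RE/Ovx and NE/Ovx rats was -0.97 in place of -0.50, and that of the fast class was -1.36 in place of -1.10.

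The developmental myosins belong to embryonic and newborn fibres. Myh3 was at 5.32, 6.65 and 5.46 CPM in RE/Ovx rats, 9.91, 6.29 and 4.30 CPM in NE/Ovx rats, and 7.01, 2.42 and 11.8 CPM in Sham rats, so all 3 groups overlapped. Myh8 stayed between 0 and 1.17 CPM in the 9 rats, both extremes being Sham rats, and was not tested.

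Genes of the sarcomere that both fibre types share followed the fast genes, with a smaller gap. Acta1 was at 425, 598 and 363 CPM in RE/Ovx rats, 939, 840 and 883 CPM in NE/Ovx rats, and 1147, 344 and 1195 CPM in Sham rats. Tpm2, beta-tropomyosin, was at 108, 144 and 107 CPM in RE/Ovx rats, 172, 164 and 144 CPM in NE/Ovx rats, and 238, 69.6 and 231 CPM in Sham rats. For both genes Sham rats 7 and 12 were above all NE/Ovx rats. Ttn, the giant spring of the sarcomere, was at 4742, 6243 and 4362 CPM in RE/Ovx rats, against 11340, 8531 and 8305 CPM in NE/Ovx rats and 5495, 3125 and 9111 CPM in Sham rats. Sham rat 7 was high for Acta1 and Tpm2 but within the RE/Ovx range for Ttn. Neb, the ruler of the thin filament, was the only one of the 35 whose NE/Ovx values (1167 to 1281 CPM) lay above all Sham values (422 to 1060 CPM). Myot, a Z disc protein, was at 0 in all RE/Ovx rats and in 6 of the 9 rats in all.

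The 6 calcium handling genes all had RE/Ovx values below all NE/Ovx values. Atp2a1 was at 462, 599 and 382 CPM in RE/Ovx rats, 1139, 968 and 1050 CPM in NE/Ovx rats, and 1257, 408 and 1293 CPM in Sham rats. Pvalb, the calcium buffer of fast fibres, was at 46.3, 39.2 and 32.3 CPM in RE/Ovx rats, 108, 120 and 83.9 CPM in NE/Ovx rats, and 105, 25.7 and 119 CPM in Sham rats. Casq1, which stores calcium in the reticulum of fast fibres, was at 47.1, 50.6 and 31.3 CPM in RE/Ovx rats, 92.3, 104 and 94.9 CPM in NE/Ovx rats, and 85.0, 29.4 and 104 CPM in Sham rats. Pvalb was the only tested gene for which rat 5 was not the highest RE/Ovx rat. Ryr1, the release channel, Cacna1s, its voltage sensor, and Trdn, which anchors calsequestrin to the channel, ranged over 26.1 to 152 CPM in RE/Ovx rats, 58.2 to 248 CPM in NE/Ovx rats and 23.7 to 244 CPM in Sham rats.

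Among the energy genes, Mb, the oxygen store of the fibre, was at 133, 216 and 109 CPM in RE/Ovx rats, 270, 209 and 289 CPM in NE/Ovx rats, and 366, 98.2 and 327 CPM in Sham rats. Mb, a gene of oxidative fibres, was the only one of the 5 whose RE/Ovx and NE/Ovx values overlapped, through rat 5. Ckm, the muscle creatine kinase, was at 162, 230 and 134 CPM in RE/Ovx rats, 417, 353 and 395 CPM in NE/Ovx rats, and 470, 154 and 509 CPM in Sham rats. Pygm, which breaks down glycogen, was at 145, 193 and 125 CPM in RE/Ovx rats, 337, 308 and 334 CPM in NE/Ovx rats, and 358, 120 and 381 CPM in Sham rats. Prkag3, the AMP kinase subunit of fast glycolytic fibres, had the most negative fold change of the 35 genes between RE/Ovx and NE/Ovx rats (log2 -1.65, SE 0.41), at 1.82, 2.29 and 1.16 CPM in RE/Ovx rats against 5.88, 7.40 and 3.27 CPM in NE/Ovx rats and 4.54, 2.58 and 5.75 CPM in Sham rats. Ampd1, the AMP deaminase of muscle, ranged over 12.1 to 27.1 CPM in RE/Ovx rats, 37.4 to 38.7 CPM in NE/Ovx rats and 14.8 to 46.7 CPM in Sham rats.

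The comparisons with the Sham group share its 3 rats and share the ovariectomized rats with the comparison above, so they are not independent of it. The choice of genes favours low RE/Ovx and high NE/Ovx values in them. In NE/Ovx against Sham, none of the 35 genes passed an adjusted p of 0.05 in edgeR (adjusted p between 0.281 and 0.996), beside 1.23% of all genes. At an unadjusted p under 0.05 the edgeR count was 0, beside 20.5% of all genes. At an adjusted p under 0.05 the count was also 0 with DESeq2, beside 5.42% of all genes, and with limma. At the study's thresholds, 0 were higher, beside 11.3% of all genes, and 0 were lower, beside 6.52%. The NE/Ovx values lay above all Sham values for 1 gene, Neb (2.86% of the 35, beside 13.9% of all genes; log2 fold change 0.58, SE 0.28, adjusted p = 0.281). The median log2 fold change was 0.22, with 29 of 35 positive, and it was -0.13 without Sham rat 8, so the direction rests on that library.

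In RE/Ovx against Sham, all 35 genes had negative log2 fold changes, with a median of -0.75 against -0.01 over all genes tested. The genes were chosen after low values in these RE/Ovx libraries had been seen, which favours negative changes and low p values here. The p values and counts of this comparison are therefore given as a description only. None passed an adjusted p of 0.05 in edgeR, beside 8.06% of all genes, while 15 of the 35 (42.9%) had an unadjusted p under 0.05, beside 25.6% of all genes. The class medians were -0.83 for fast, -0.82 for calcium handling, -0.94 for energy metabolism, -0.38 for shared sarcomere and -0.22 for slow genes, and the slow median was -0.87 without RE/Ovx rat 5 and 0.09 without Sham rat 7. Without Sham rat 8 the medians were -1.20 for fast, -1.17 for calcium handling, -1.29 for energy metabolism, -0.72 for shared sarcomere and -0.54 for slow genes. DESeq2 called 2 of 37 (5.41%), Cacna1s and Prkag3 (adjusted p = 0.0329 and 0.0247 in DESeq2), beside 10.5% of all genes. At an adjusted p under 0.05, limma called 0 of the 35, beside 6.18% of all genes with a pseudocount of 1. At the study's thresholds 15 were lower, beside 9.16% of all genes: 6 of 11 fast, 3 of 6 calcium handling, 4 of 5 energy metabolism, 1 of 5 shared sarcomere and 1 of 7 slow genes. This count was 2 without Sham rat 7, Sham rat 12 or RE/Ovx rat 8, 5 without RE/Ovx rat 3, 28 without Sham rat 8, and 3 with limma, so the class counts rest on single rats. The share of all genes past the study's thresholds is not given for these alternatives, so the changes are not read as a trait of the muscle genes. The smallest adjusted p was that of Actn3 (log2 fold change -1.09, SE 0.34, adjusted p = 0.0795 in edgeR). The RE/Ovx values lay below all Sham values for 1 gene, Prkag3 (log2 fold change -1.29, SE 0.41, adjusted p = 0.0818), beside 13% of all genes.

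Sham rat 8 decided the number of calls. Without it, 23 of the 36 genes then tested were lower in RE/Ovx rats than in Sham rats at an adjusted p under 0.05, beside 5.75% of all genes in either direction. They were 10 of 11 fast, 6 of 6 calcium handling, 4 of 5 energy metabolism, 2 of 5 shared sarcomere and 1 of 7 slow genes, the slow one being Mybpc1. The 2 shared sarcomere genes were Acta1 (log2 fold change -1.34, adjusted p = 0.0138 in edgeR without rat 8) and Tpm2 (-0.97, adjusted p = 0.0138). Pvalb had the smallest adjusted p (log2 fold change -1.51, adjusted p = 0.0095). Myh7 did not pass (-0.54, adjusted p = 0.478), nor did Tnnt1, Tnni1, Tnnc1, Myl2 and Myl3. These genes were chosen after low values in the RE/Ovx rats had been seen, and rat 8 was singled out by its low values in the same genes. Both choices favour such calls, so the adjusted p values and class counts without rat 8 are given as a description only. The marker lists given below were also compared by mean centred log2 CPM. Sham rat 8 had the lowest tendon and ligament (-1.51) and smooth muscle levels (-0.96) of all rats. The same held for its peripheral nerve (-0.48) and adipocyte levels (-2.04). It had the highest osteoblast and osteocyte (-0.07) and B cell levels (-0.13) of the Sham rats. Its neutrophil level (0.45) lay between theirs, and its erythroid level (0.11) lay below theirs. Whether the low values of rat 8 belong to the Sham condition or to that bone alone was not tested. Leaving out any other rat of the comparison gave 0 calls among the muscle fibre genes. The share of all genes called was then 0.701% without RE/Ovx rat 5, 0.703% without RE/Ovx rat 8 and 11.9% without RE/Ovx rat 3. It was 4.09% without Sham rat 7 and 5.21% without Sham rat 12.

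Most of the spread between rats was shared by the muscle fibre genes. The SD of log2 CPM over the 9 rats had a median of 0.695 over the 35 genes. It was 0.197 after the rat's mean muscle level, taken over the other tested genes, was subtracted. For fast genes these medians were 0.707 before and 0.169 after, for calcium handling genes 0.701 and 0.158, and for slow genes 0.633 and 0.355. Tnnt3 had the smallest SD after subtraction (0.114) and Myl2 the widest (0.621). The mean level left out the gene itself but was taken from the same set, and fast genes outnumber slow ones in it. This by itself draws the fast genes closer to 0. Slow Myl2 had 14 to 79 counts a rat and Tnni1 had 45 to 203, and the part of low counts in the SD of slow genes was not tested. The mean level of calcium handling genes stayed within 0.113 of that of fast genes in every rat, on the log2 scale.

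**Figure D3:**
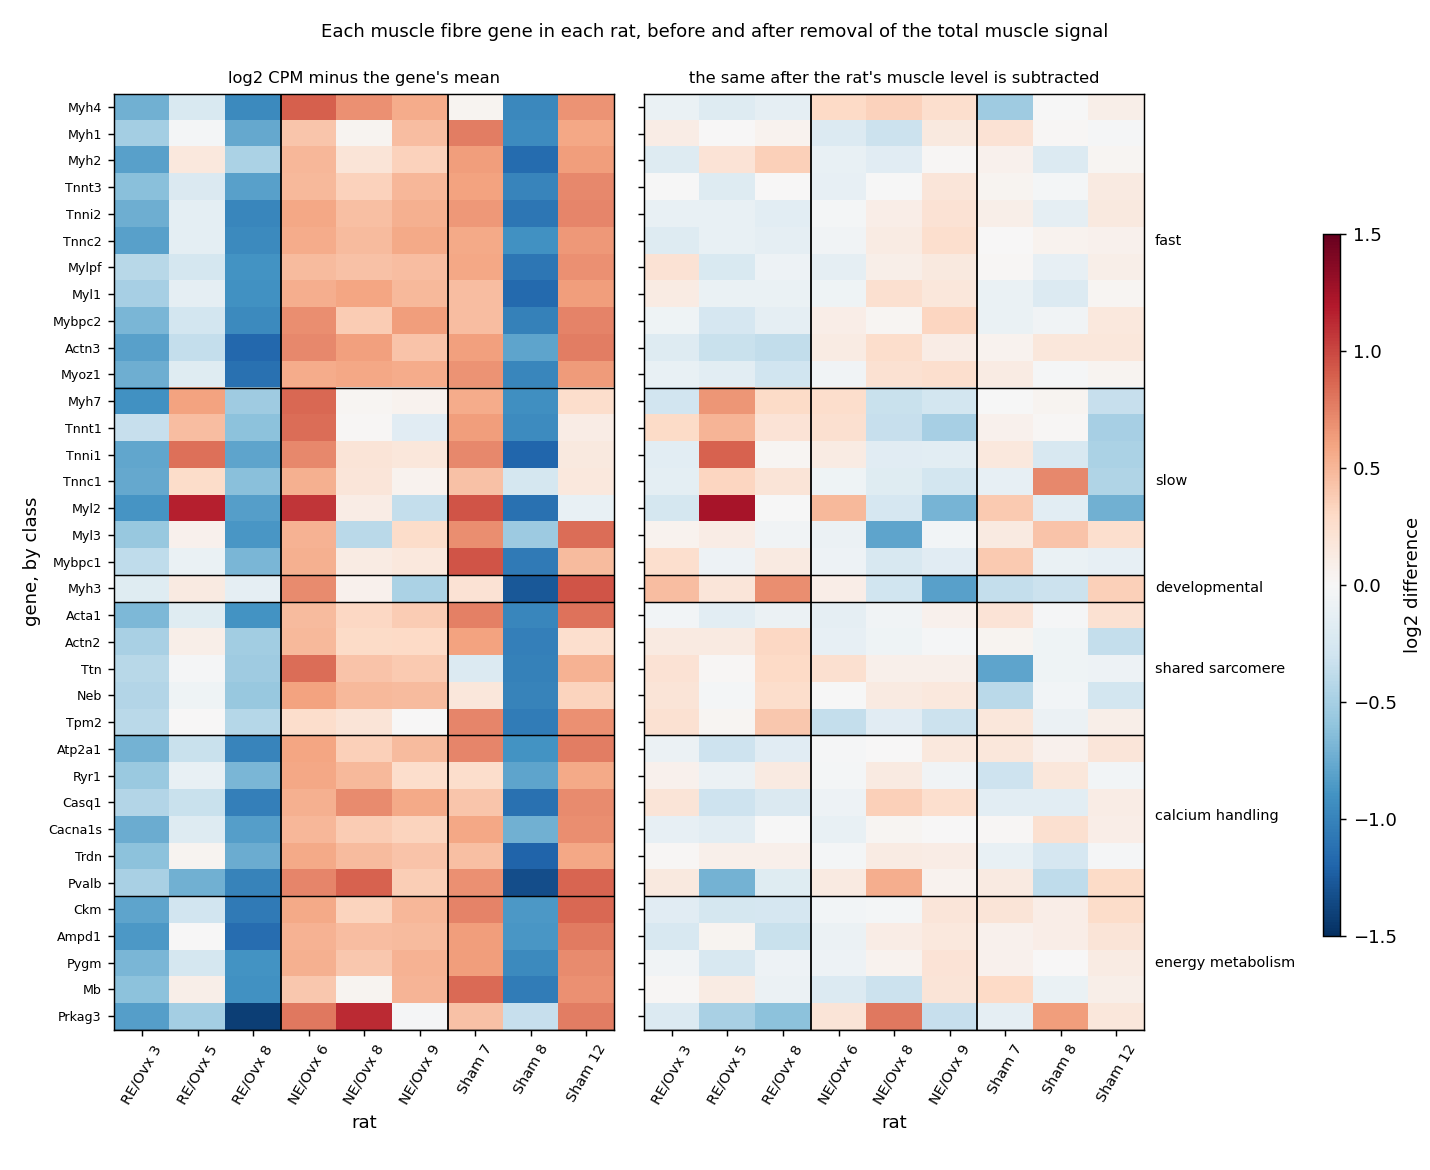
Each row is 1 of the 35 tested genes and each column a rat. Colours give log2 CPM minus the gene's mean over the 9 rats (left). On the right, the rat's mean muscle level over the other tested genes is also subtracted. The median SD over rats is 0.695 on the left and 0.197 on the right, and the highest remaining value is that of slow Myl2 in RE/Ovx rat 5.

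The slow minus fast level, a difference of mean centred log2 CPM, was 0.01, 0.64 and 0.20 in RE/Ovx rats 3, 5 and 8, against 0.14, -0.40 and -0.48 in NE/Ovx rats 6, 8 and 9. In Sham rats 7, 8 and 12 it was 0.15, 0.15 and -0.41. The 3 groups overlapped. Of the 3 rats with the lowest totals, Sham rat 8 was at 0.15, RE/Ovx rat 8 at 0.20 and RE/Ovx rat 3 at 0.01. Sham rat 8 was level with Sham rat 7 and above Sham rat 12.

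Shares of isoform pairs were taken from summed FPKM within each rat. A share does not move when all forms of its family change by the same factor. Whether all reads of each form came from muscle was not tested, so a share may still move with the total. Myh7 made up 3.18, 6.03 and 4.56% of the 4 adult heavy chains in RE/Ovx rats, 4.33, 2.97 and 2.82% in NE/Ovx rats, and 4.07, 3.95 and 2.96% in Sham rats. Its mean was 4.59 ± 1.42% in the RE/Ovx group, 3.37 ± 0.83% in the NE/Ovx group and 3.66 ± 0.61% in the Sham group (SD, n = 3 each). The groups overlapped, and the differences from Sham were -0.286 percentage points for NE/Ovx (exact permutation test, p = 0.9) and 0.93 for RE/Ovx (exact permutation test, p = 0.4). Of 20 such tests against Sham, over 10 shares, none had an adjusted p under 0.5. With 3 rats a group the smallest two-sided exact p is 0.1, so no share could pass.

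For Myh4 and Myh1, the shares among the fast myosins did not overlap between the ovariectomized groups. That comparison chose the genes, so this is a description, and the difference between these groups was not tested. Myh4 made up 44.6, 42.9 and 42.6% of the 3 fast heavy chains in RE/Ovx rats, against 55.1, 57.6 and 49.3% in NE/Ovx rats and 35.5, 47.5 and 48.5% in Sham rats. All NE/Ovx rats were above all rats of the other groups. Against Sham the difference for NE/Ovx was 10.2 percentage points (exact permutation test, p = 0.1, adjusted p = 0.5), and for RE/Ovx it was -0.467 (exact permutation test, p = 1). Myh1 had the opposite order: its share was 42.6 ± 1.4% in RE/Ovx rats, 34.9 ± 4.1% in NE/Ovx rats and 43.6 ± 5.92% in Sham rats (SD, n = 3 each), and RE/Ovx and NE/Ovx rats did not overlap. Myh2 was at 14.05 ± 2.49% in RE/Ovx rats, 11.1 ± 0.221% in NE/Ovx rats and 12.6 ± 1.55% in Sham rats, with overlap between all groups. As the 3 genes are near-identical copies, a share among them also carries the uncertainty of how shared reads were assigned.

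Among the other pairs, slow Tnnc1 made up 12.2, 15.4 and 14.5% of troponin C in RE/Ovx rats, above all NE/Ovx rats (11.9, 10.01 and 8.73%), with 11.2, 17.5 and 8.81% in Sham rats. Sham rat 8, which had the lowest total muscle signal, had the highest share of all 9 rats. Mybpc1 made up 61.3, 59.1 and 60.7% of myosin binding protein C in RE/Ovx rats, above all NE/Ovx rats (53.3, 51.6 and 47.9%), with 64.2, 55.3 and 51.5% in Sham rats. Tnnt1 made up 8.25, 10.6 and 7.79% of troponin T in RE/Ovx rats, above all Sham rats (7.04, 7.02 and 4.63%; exact permutation test, p = 0.1, adjusted p = 0.5), with 8.68, 5.58 and 4.46% in NE/Ovx rats. Myl3 went the other way against Sham: it made up 7.19, 8.63 and 7.69% of the essential light chains in RE/Ovx rats and 7.49, 3.92 and 6.61% in NE/Ovx rats, both below the 8.79, 11.1 and 8.69% of Sham rats (exact permutation tests, p = 0.1 each, adjusted p = 0.5 each). Tnni1 and Myl2 overlapped in all comparisons, with shares of 1.18 to 3.42% and 0.727 to 3.53% over the 9 rats, and RE/Ovx rat 5 had the highest of both.

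**Figure D4:**
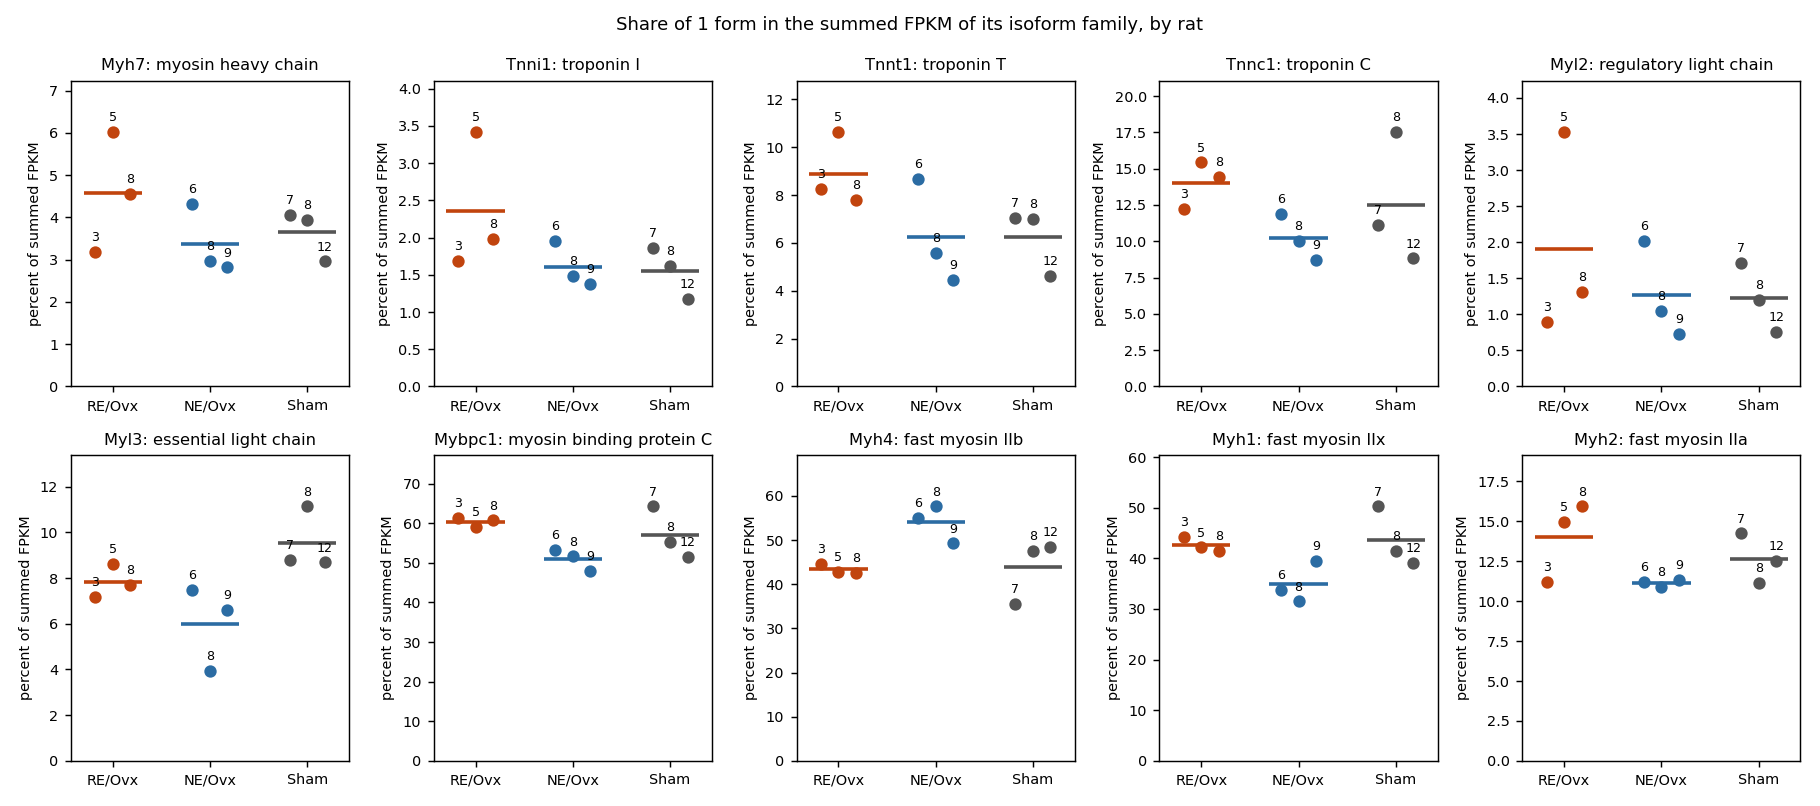
Each panel plots the percent of an isoform family's summed FPKM taken by the form named above it, with 1 point a rat and lines at group means. The Myh4 share is 49.3 to 57.6% in NE/Ovx rats and 42.6 to 44.6% in RE/Ovx rats, the slow shares of Myh7, Tnni1, Tnnt1 and Myl2 peak in RE/Ovx rat 5, and no share differs from Sham at an adjusted p under 0.5.

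Other muscle genes, 64 of them listed by role and 55 tested, mostly had the same signs. Their mean centred log2 CPM was 0.53, -0.90 and 0.46 in Sham rats 7, 8 and 12, and 0.33 to 0.42 in NE/Ovx rats. The NE/Ovx against Sham direction thus rests on Sham rat 8 here too. In that comparison 2 of the 3 tested myogenic regulators were negative (median -0.39). The log2 fold changes of these other muscle genes were negative for 54 of 55 in RE/Ovx against NE/Ovx (median -0.81). They were negative for 13 of 55 in NE/Ovx against Sham (median 0.15) and for 50 of 55 in RE/Ovx against Sham (median -0.59). None passed an adjusted p of 0.05 in edgeR in any of the 3 comparisons. In RE/Ovx against Sham, the smallest p values belonged to Trim63, a ubiquitin ligase of muscle atrophy, at 4.98, 7.64 and 4.75 CPM in RE/Ovx rats, 11.7, 15.2 and 12.8 CPM in NE/Ovx rats and 15.1, 5.56 and 16.8 CPM in Sham rats (log2 fold change -1.11, adjusted p = 0.0873 in edgeR), and to Jph1, a junction protein of the calcium release unit (-0.82, adjusted p = 0.105). In NE/Ovx against Sham they belonged to Myh6 (4.27, SE 1.23, adjusted p = 0.105) and to Jsrp1, a protein of the same junction (0.50, SE 0.18, adjusted p = 0.156). Myh6, the heart's alpha myosin and a near-identical copy of Myh7, was at 0.294, 9.48 and 10.8 CPM in NE/Ovx rats 6, 8 and 9, against 0.894, 0.0806 and 0 CPM in Sham rats, and it was at 0.269, 0.0764 and 0.771 CPM in RE/Ovx rats. Only rats 8 and 9 of the NE/Ovx group were above 1 CPM, and their Myh7 values were the lower ones of their group. The transcription factors and satellite cell genes of the list summed to 2.96 to 4.88 CPM in RE/Ovx rats, 6.32 to 8.0 CPM in NE/Ovx rats and 3.14 to 11.4 CPM in Sham rats.

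Markers of other tissues that a dissected bone can carry were summed in the same way. The threshold for these lists was an adjusted p under 0.05 in edgeR. All genes passed it, in either direction, at 8.06% in RE/Ovx against Sham and 1.23% in NE/Ovx against Sham. The 8 tendon and ligament genes summed to 449 to 1167 CPM in RE/Ovx rats, 631 to 800 CPM in NE/Ovx rats and 276 to 487 CPM in Sham rats. Past the threshold, 3 of the 8 were higher in RE/Ovx rats than in Sham rats. The 8 smooth muscle genes, which include Des, a gene skeletal muscle also uses, summed to 197 to 342 CPM in RE/Ovx rats, 304 to 448 CPM in NE/Ovx rats and 152 to 318 CPM in Sham rats, with none past the threshold. In RE/Ovx against NE/Ovx, 7 of these 8 had negative log2 fold changes (median -0.44), the same sign as the muscle fibre genes. Neutrophil genes were negative there for 7 of 7 (-0.20). The other lists were mostly positive: 2 of 8 tendon and ligament genes were negative (median 0.39), as were 2 of 7 nerve genes (0.12). Negative values were found for 0 of 8 adipocyte (0.41), 1 of 7 erythroid (0.10) and 2 of 8 B cell genes (0.09). The 8 peripheral nerve genes summed to 150 to 188 CPM in RE/Ovx rats, 134 to 161 CPM in NE/Ovx rats and 135 to 152 CPM in Sham rats, with 1 gene past the threshold, higher, in each comparison with Sham. The 8 adipocyte genes summed to 520 to 730 CPM in RE/Ovx rats, 412 to 509 CPM in NE/Ovx rats and 131 to 267 CPM in Sham rats. Past the threshold, 8 of 8 were higher in RE/Ovx rats than in Sham rats (median log2 fold change 2.73). In NE/Ovx rats against Sham rats, 4 of 8 were higher past it (median 2.25). Among marrow cells, neutrophil genes had the sign of the muscle genes in RE/Ovx against Sham: 7 of 7 tested were lower (median log2 fold change -0.84), 4 of them past the threshold. Their sums were 3705 to 5801 CPM in RE/Ovx rats, 4983 to 5842 CPM in NE/Ovx rats and 6824 to 11710 CPM in Sham rats. Erythroid genes were negative for 7 of 7 in the same comparison (median -0.30, 0 past the threshold), with sums of 14360 to 29170 CPM in RE/Ovx rats, 19900 to 26060 CPM in NE/Ovx rats and 29260 to 37180 CPM in Sham rats. B cell genes were positive for 8 of 8 (median 1.21, 2 past the threshold), with sums of 663 to 810 CPM in RE/Ovx rats, 536 to 928 CPM in NE/Ovx rats and 156 to 455 CPM in Sham rats. In NE/Ovx against Sham the medians were -0.54 for neutrophil, -0.43 for erythroid and 1.14 for B cell genes. There the neutrophil and erythroid genes were negative for 7 of 7 each, while 29 of 35 muscle fibre genes were positive. Of the 8 erythroid genes listed, 7 were among the counted genes. No counted marker of these 7 lists was at 0 in all rats. Of the 8 osteoblast and osteocyte genes given above, 2 were higher past the threshold in each comparison with Sham. The part of these tissues and cells in the muscle values was not tested, and no source used here states how much muscle was left on each bone.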

How the data were processed

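Total RNA of 9 tibias was depleted of ribosomal RNA and sequenced from stranded libraries, 1 for each of 9 animals. The authors deposited raw read counts per gene, not normalized, and FPKM values, scaled by the authors to gene length and depth. Tools listed in the submitters' notes, with no version or role, are HISAT2, StringTie, Trimmomatic, DESeq and Bowtie2, with the genome Rnor_6.0. No source used here says whether counting used strand.

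Counts of all 9 rats were fitted with edgeR 4.0.16 (R 4.3.3; TMM, filterByExpr, quasi-likelihood test, group as the only term), with Benjamini-Hochberg adjustment over 14520 genes. Rat levels used log2 CPM with a prior count of 2. FPKM shares were compared by two-sided exact permutation tests (scipy 1.17.1), 20 in all. Scripts were tested on simulated data.

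The genes, lists and tests were chosen with earlier results of these data known. Per-rat values are given for the myosins, the troponin pairs, the 3 members with the highest mean FPKM in each remaining class, and any member past an adjusted p of 0.05 against Sham (none). Neb, Prkag3 and Cacna1s were singled out after their values were seen. Of the other muscle genes, the 2 with the smallest p in each comparison with Sham are named. Alternatives were DESeq2's size factors, library totals, other filters (none, or 10 counts in each rat), DESeq2 1.42.0, edgeR on 6 rats, limma 3.58.1 on log2(FPKM + 1) and log2(FPKM + 0.1), FPKM in place of counts for the total, shares from counts or log2 ratios, and leaving out each rat.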

Additional observations from a re-analysis of the deposited data

How the results depend on the processing

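Over 60 results and 600 alternatives, 559 kept their sign and stayed within the replicate spread or their side of the threshold, 18 counts moved and 23 values changed sign. Of these 23, 15 were shares and 8 were medians. Without Sham rat 8, the NE/Ovx against Sham medians were -0.13 for all 36 genes then tested (0.22 with all rats), -0.11 for fast, -0.11 for slow, -0.09 for shared sarcomere, -0.08 for calcium handling and -0.23 for energy metabolism. The slow median was -0.15 without NE/Ovx rat 6, and in RE/Ovx against Sham it was 0.09 without Sham rat 7. In RE/Ovx against NE/Ovx, the genes past the study's thresholds were 22, and 14 to 29 with 1 rat left out. In NE/Ovx against Sham they were 0, against 1 with library totals, 1 with no filter, 1 with DESeq2, 3 with limma at either pseudocount, and 0 to 3 with 1 rat left out. In RE/Ovx against Sham they were 15, against 8 with edgeR on the 6 rats, 3 with limma at either pseudocount, and 2 to 28 with 1 rat left out. For the alternatives in all 3 comparisons, the share of all genes past the study's thresholds is not given. The genes past an adjusted p of 0.05 in RE/Ovx against Sham were 0, against 2 with DESeq2, and 0 to 23 with 1 rat left out, the 23 being without Sham rat 8. Over all genes the share was 8.06%, against 10.5% with DESeq2 and 0.701 to 11.9% with 1 rat left out. The cause of these changes was not tested.

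Some shares changed sign. With 1 rat left out, their difference from Sham in percentage points for NE/Ovx was -0.131 to 0.211 for Tnni1 (-0.117 without NE/Ovx rat 6), -1.21 to 0.903 for Tnnt1 (-0.788 without Sham rat 12), -4.13 to 0.231 for Tnnc1 and -0.334 to 0.314 for Myl2 (-0.190 without Sham rat 12). For RE/Ovx it was -0.3 to 4.06 for Tnnc1, -0.117 to 1.199 for Myl2, -4.62 to 1.86 for Myh4 (1.36 without Sham rat 8) and -3.22 to 2.39 for Myh1. The Myl2 share of RE/Ovx minus NE/Ovx rats was -0.161 to 1.15. As mean log2 ratios of the forms, NE/Ovx minus Sham was -0.0268 for Tnnt1 and -0.00067 for Myl2.

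No paired analysis was possible because the groups are made up of different animals. With 3 rats a group, groups were too small for a test of single outlying rats, and differences near the spread of Sham rats, whose muscle signal ranged over 0.661 to 1.95% of counts, were not detectable. Myot (0 to 0.207 CPM) and Myh8 were too low to compare.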

Other observations

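One ratio within the sarcomere, that of giant Ttn to small Acta1, is given by rat, chosen after the values were seen. Ttn stood at 15.4, 14.5 and 16.6% of the FPKM of Acta1 in RE/Ovx rats 3, 5 and 8, at 16.7, 14.1 and 13.01% in NE/Ovx rats 6, 8 and 9, and at 6.62, 12.6 and 10.5% in Sham rats 7, 8 and 12. All ovariectomized rats were above all Sham rats. Neb, another giant protein of the sarcomere, had its lowest value relative to the rat's muscle level in Sham rat 7, as Ttn did. No test was run on these values.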
